A study of Mus musculus with 2 samples.

Results

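The SR proteins and the heterogeneous nuclear ribonucleoproteins (hnRNPs) are the best known RNA-binding regulators of pre-mRNA splicing. They were taken here as every mouse protein-coding gene whose symbol is Srsf or Ptbp followed by a number or starts with Hnrnp, plus Tra2a, Tra2b and Raly. The rule found 37 genes among 21474 protein-coding genes in the tables: 11 Srsf genes, 2 Tra2 genes, 20 Hnrnp genes, 3 Ptbp genes and Raly. The rule used names only and no measured value, but it was set with earlier results of these data known.

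Total RNA of whole kidneys from mouse embryos of strain B6NCrl at embryonic day 14.5 was sequenced in 2 libraries, here called replicate 1 and replicate 2. Each was labelled as 2 kidneys of 1 pup, although the labels also describe the sexes as pooled, and the collection days lay 2 days apart. No treatment or genetic change was named, and each library started from 10 ng of RNA longer than 200 nt with spike-in RNAs added. There is 1 group, so the data show levels and transcript forms in normal developing kidney and how far 2 samples differ. No p-value is given, because 2 samples of 1 group allow no test of a gene.

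SR proteins carry an RNA recognition motif and a region rich in arginine and serine. They bind exonic enhancers and help the spliceosome to define an exon. Many hnRNPs bind pre-mRNA along its length and often act against exon use, so that the balance between the families sets many splicing choices. Several members also limit their own amounts: when the protein is plentiful, it promotes use of a "poison" exon or of an intron in its own transcript. That form carries an early stop codon and can be removed by nonsense-mediated decay.

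The libraries held 29718428 and 29204212 expected counts, of which 4.34% and 4.95% did not fall on named genes. Members held 429815 and 433876 counts. The tissue labels were checked with marker lists: 7 of 7 nephron progenitor, 6 of 6 ureteric epithelium and 5 of 5 stromal markers were detected at 1 TPM or more in both libraries. Leukocyte markers were detected for 4 of 4 genes, with a summed level of 62.3 and 54.6 TPM. Neuronal markers were detected for 2 of 8 genes, and their summed level was 21.1 and 18.5 TPM. Erythroid markers were detected for 2 of 4 genes and summed to 4657 and 3949 TPM, nearly all of it haemoglobin mRNA. Klf1 stood at 0.93 and 1.24 TPM and Gata1 at 0.38 and 0.40 TPM. TPM, the unit of the tables, is a relative number of transcripts corrected for their length, so levels of different genes can be set side by side. In whole tissue, fewer cells of a type and less RNA per cell cannot be told apart.

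All 37 members were detected at 1 TPM or more in both libraries, where 59.0% of all protein-coding genes were. The median member stood at 223 TPM in replicate 1 and 226 TPM in replicate 2, and the median of the members' mean levels was 231.6 TPM. The same median over the 12669 protein-coding genes detected was 18.3 TPM. Together the members held 1.21% and 1.09% of the summed TPM of named genes (1.15% ± 0.0903, SD, n = 2). The hnRNPs alone held 0.729% and 0.620%, and the SR proteins 0.398% and 0.366%. Members ranged from 3.51 TPM to 1259 TPM by mean level, and 35 of them lay above 30 TPM.

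**Figure D1:**
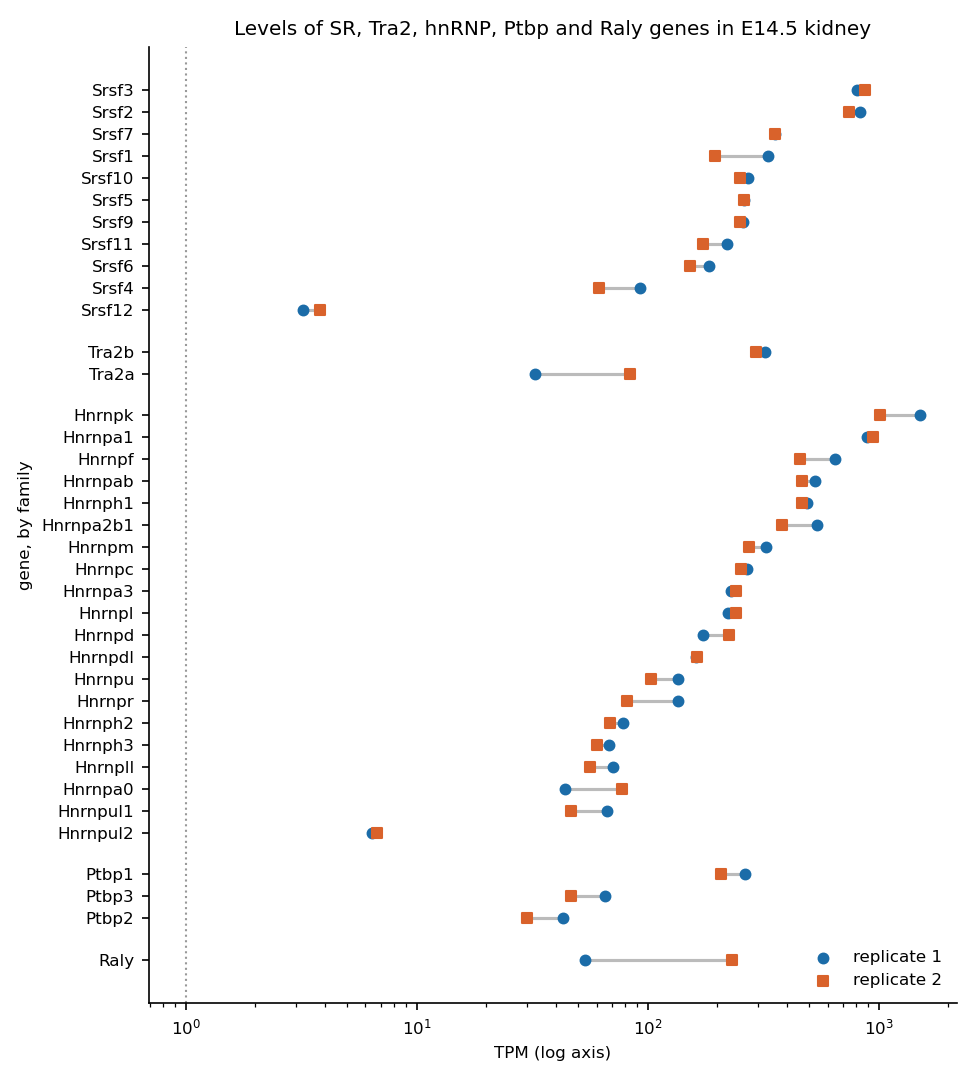
Level in TPM (log axis) of each of the 37 genes in replicate 1 (circles) and replicate 2 (squares), grouped by family and joined by a grey line. The dotted line marks the detection level of 1 TPM, and the longest grey lines belong to Raly and Tra2a.

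Among the SR proteins, Srsf3 and Srsf2 were highest. Srsf3, the smallest of the classical SR proteins and a factor in mRNA export and transcription end choice, stood at 801 TPM in replicate 1 and 868 TPM in replicate 2 (835 ± 47.2, SD, n = 2). Srsf2, once known as SC35 and a marker of nuclear speckles, stood at 827 and 744 TPM (785 ± 59.2). The values of these genes overlapped between libraries, so no order between them could be given. Srsf7, a close relative of Srsf3, was next at 355 TPM in each library and had the smallest SD relative to its level. Srsf1, the founding member of the family, was at 330.3 TPM in replicate 1 and 196 TPM in replicate 2, a 1.69-fold higher level in replicate 1. Srsf10, Srsf5 and Srsf9 lay close together, between 249.5 and 271 TPM in every library. Srsf11 and Srsf6 lay between 153 and 221 TPM, and Srsf4 stood at 92.6 and 61.7 TPM.

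Srsf12 was the lowest of all members, at 3.21 TPM in replicate 1 and 3.81 TPM in replicate 2 (3.51 ± 0.424, SD, n = 2). These levels rested on 121 and 155 expected counts. It is a relative of Srsf10 known as a repressor of splicing in some tissues. Srsf3 exceeded Srsf12 by 249.7-fold in replicate 1 and 228-fold in replicate 2.

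The Tra2 proteins resemble SR proteins and bind enhancers rich in purines. Tra2b was at 320.4 TPM in replicate 1 and 294 TPM in replicate 2 (307 ± 18.9, SD, n = 2). Tra2a was at 32.4 TPM in replicate 1 and 83.6 TPM in replicate 2 (58.0 ± 36.2). Tra2b therefore exceeded Tra2a 9.89-fold in replicate 1 and 3.51-fold in replicate 2. Tra2b was the more abundant paralog in both libraries, but the size of its lead was not stable between them.

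Hnrnpk was the most abundant member. It encodes a protein with KH domains that binds stretches of cytosine, and it stood at 1511 TPM in replicate 1 and 1007 TPM in replicate 2 (1259 ± 356, SD, n = 2). That mean placed it 69th among all detected protein-coding genes. Hnrnpa1, which binds UAGG-like silencers and represses exons, stood at 890.0 and 939 TPM (915 ± 34.7). Its close relative Hnrnpa2b1 was lower, at 539.5 and 381 TPM, and Hnrnpa1 exceeded it 1.65-fold and 2.46-fold. Hnrnpf and Hnrnph1, which bind runs of guanine, were at 647 and 455 TPM and at 489 and 464 TPM. Hnrnpab, a binder of AU-rich RNA, was at 530.2 and 465 TPM.

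A middle group of hnRNPs lay between 81.7 and 324 TPM in each library: Hnrnpm, Hnrnpc, Hnrnpa3, Hnrnpl, Hnrnpd, Hnrnpdl, Hnrnpu and Hnrnpr. Hnrnpc binds uridine tracts and keeps buried exons from being used, and stood at 269 and 254 TPM. Hnrnpl, a binder of CA repeats, was at 223 and 240.3 TPM, and its paralog Hnrnpll was 3.15-fold and 4.26-fold lower. Hnrnpll is best known for changing CD45 splicing in lymphocytes, and was at 70.85 and 56.4 TPM. Hnrnpul1 stood at 66.3 and 46.4 TPM, Hnrnph3 at 67.9 and 60.4 TPM, and Hnrnph2 at 78.5 and 68.7 TPM. Hnrnpa0, an hnRNP A family gene with a single transcript in the tables, was at 43.65 TPM in replicate 1 and 77.2 TPM in replicate 2. It was among 7 of 20 hnRNPs that stood higher in replicate 2. The same held for 2458 of 10696 protein-coding genes at 5 TPM or more in the higher library. Hnrnpul2 was far below the rest at 6.41 and 6.75 TPM (6.58 ± 0.240, SD, n = 2).

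The polypyrimidine tract binding proteins repress exons next to pyrimidine-rich RNA. Ptbp1 is the general form, Ptbp2 replaces it in neurons, and Ptbp3 was first described in blood cells. Ptbp1 stood at 262 TPM in replicate 1 and 208 TPM in replicate 2 (235 ± 38.3, SD, n = 2). Ptbp3 was at 65.5 and 46.5 TPM, and Ptbp2 at 42.97 and 29.96 TPM. Ptbp1 exceeded Ptbp2 by 6.11-fold and 6.95-fold (6.53 ± 0.597, SD, n = 2). The order of all Ptbp genes was the same in both libraries, and no library of a lower gene reached one of a higher gene. Of the neuronal markers, Rbfox3 was at 0.29 and 0.38 TPM and Srrm4, a neuronal activator of exons that Ptbp proteins repress, at 0.07 TPM in each library. Elavl4 was detected at 13.3 and 10.1 TPM. The part that neurons of the kidney have in the Ptbp2 level was not tested.

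Raly, a relative of Hnrnpc, was at 53.6 TPM in replicate 1 and 231 TPM in replicate 2 (142 ± 125, SD, n = 2). Hnrnpc exceeded it 5.01-fold in replicate 1 and 1.10-fold in replicate 2. Its SD was almost as large as its mean, and no other member had such a spread.

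Ranked by mean level, the 37 members form 36 pairs of neighbours. In 26 of these pairs the values of the libraries overlapped, so their order is not resolved by this comparison across libraries. Within each library some of these pairs kept the same order, such as Srsf11 over Srsf6. Others did not, such as Srsf3 and Srsf2. In 10 pairs every value of the higher gene lay above every value of the lower gene. These included Hnrnpk over Hnrnpa1, Hnrnpa1 over Srsf3, Ptbp3 over Ptbp2, Ptbp2 over Hnrnpul2 and Hnrnpul2 over Srsf12.

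Differences between the libraries were described by log2((TPM + 1) ratio), replicate 2 over replicate 1; the added 1 TPM understates differences of low genes. A gene was called apart when this value reached 1 in either direction and the higher library held 5 TPM or more. By this rule 4.68% of protein-coding genes at 5 TPM were apart in either direction, and 0.467% were apart with the higher level in replicate 2. Of the 36 members at that level, 2 were apart, Raly and Tra2a, both higher in replicate 2. Raly differed by 2.09 on the log2 scale and ranked 13th by size of difference among 10696 genes. Tra2a differed by 1.34 and ranked 71st.

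Raly rested on 1514 expected counts in replicate 1 and 7856 in replicate 2. Its leading coding transcripts were both higher in replicate 2: Raly-202 stood at 34.4 and 164 TPM, and Raly-207 at 9.09 and 33.5 TPM. Tra2a has 1 transcript in the tables, with 1093 and 3256 expected counts. Both genes stayed apart under each of the 6 pseudocounts, estimates and scalings tried in place of the main one. Raly then ranged from 2.01 to 2.46 and Tra2a from 1.24 to 1.66 on the log2 scale. With 2 samples, which of the libraries is the usual one for E14.5 kidney cannot be told.

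No other member was apart in TPM. The median over all 37 members was -0.15 on the log2 scale, with 12 higher in replicate 2 and 25 higher in replicate 1. Of 10696 protein-coding genes at 5 TPM or more in the higher library, 2458 were higher in replicate 2. With FPKM, TMM factors and DESeq2 size factors, 22, 26 and 24 of the 37 members were higher in replicate 2. The share of all genes higher in replicate 2 was not taken under these scalings, where the medians of all genes were -0.09, -0.03 and -0.04. The sign of the members' median thus belongs to the scale. The median of all protein-coding genes at 5 TPM was itself -0.31 in TPM and -0.03 in depth-scaled counts with TMM factors, where the members' median was 0.15. Relative to the median of all genes, the members' median was 0.15 higher in TPM and between 0.10 and 0.17 higher under the alternatives. In TPM, 24 of 37 members lay above the median of all genes. Hnrnpa0 was the next member upward at 0.81, and passed 1 when FPKM, TMM factors or DESeq2 size factors were used (1.03, 1.13 and 1.08). Srsf1 at -0.75 and Hnrnpr at -0.72 were the furthest in the other direction.

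**Figure D2:**
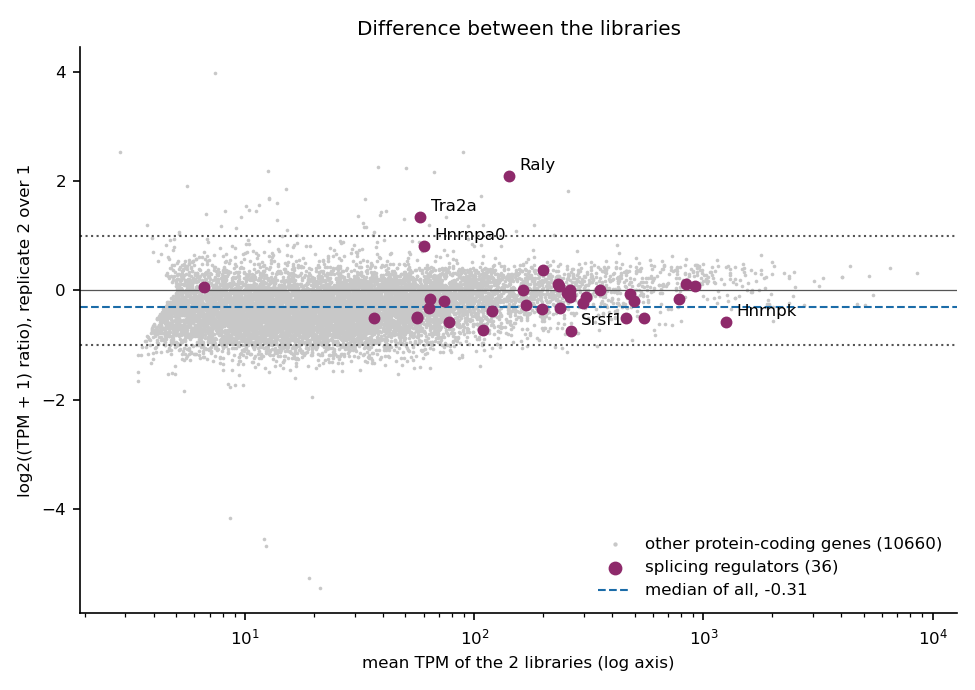
Difference between the libraries, as log2((TPM + 1) ratio) of replicate 2 over replicate 1, against mean TPM (log axis) for protein-coding genes at 5 TPM or more in the higher library. The 36 splicing regulators at that level are dark points, the dotted lines mark a difference of 1 in either direction, and the dashed line marks the median of all genes at -0.31; Raly and Tra2a lie above the upper dotted line.

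The transcript tables divide each gene's level over its annotated transcripts. The 37 members have 259 listed transcripts: 134 are annotated as protein coding, 60 as retained intron, 29 as decay type (with an early stop or an intron after the stop), 35 as other noncoding forms, and 1 found no match. These classes come from GENCODE release M21, a later release than the one behind the tables, and 22 transcripts differed in length from it or were unmatched. Class shares were taken for the 31 members with at least 2 transcripts and 5 TPM or more in both libraries. Another 5 members have 1 listed transcript each (Srsf7, Tra2a, Hnrnpa0, Hnrnpul2 and Ptbp2), and Srsf12 was under the floor.

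The median share of coding transcripts was 83.0% in replicate 1 and 83.5% in replicate 2 among members, and 91.5% and 91.7% among 7404 protein-coding genes at the same floor. Members had more listed transcripts, with a median of 7 against 5. The SR proteins stood lower than the hnRNPs: the median of their mean coding shares was 71.8% for 9 SR genes and 93.7% for 18 hnRNP genes. Of these 18 hnRNP genes, 7 had only coding transcripts listed. None of the 9 SR genes was of that kind.

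**Figure D3:**
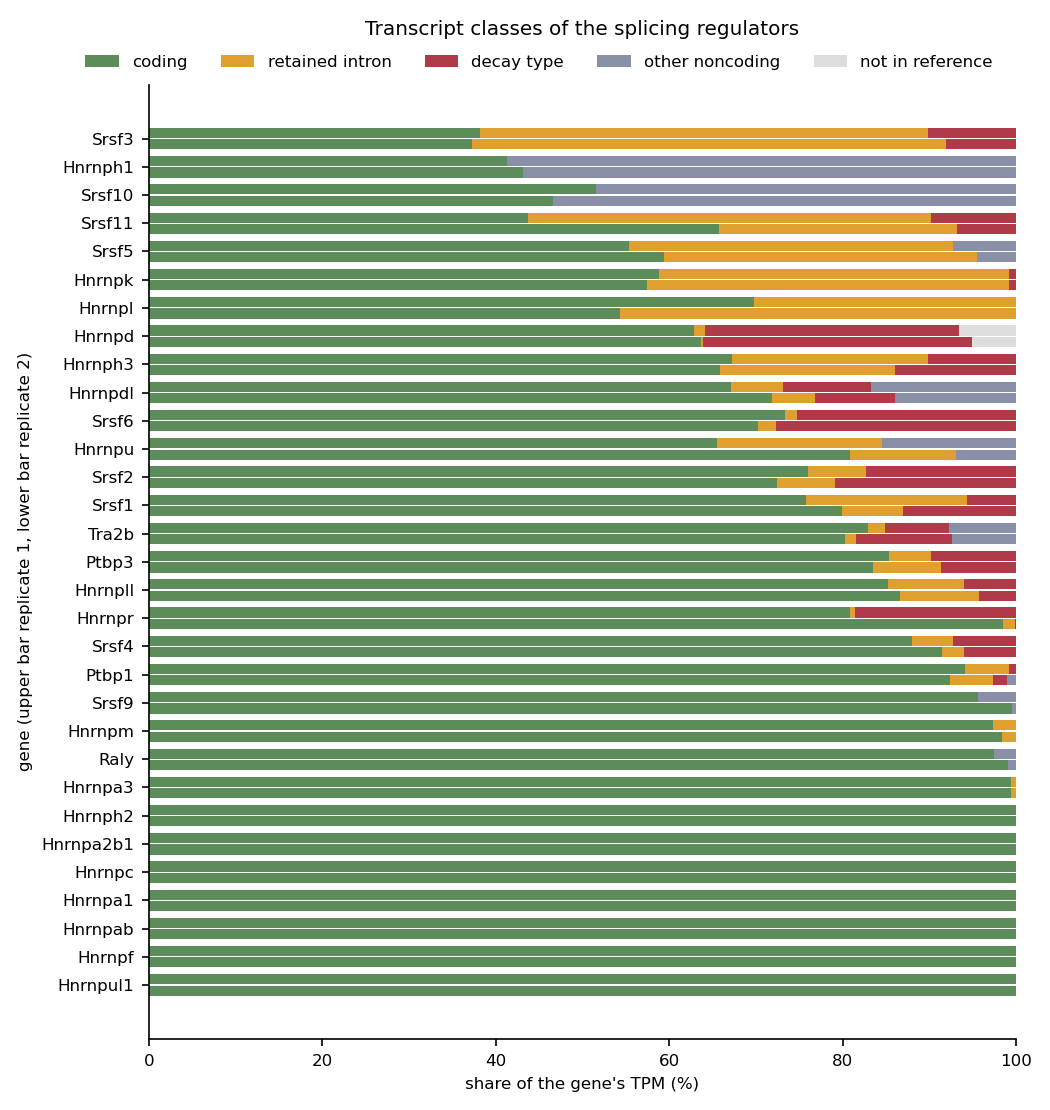
Share of each gene's TPM (percent) in coding, retained-intron, decay-type and other noncoding transcripts for 31 splicing regulators, with replicate 1 above replicate 2 for each gene. Genes are ordered by coding share, from Srsf3 at 37.7% on average to those at 100%.

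Decay-type transcripts held 20% or more in both libraries in 2 members, Srsf6 and Hnrnpd. The same held for 4.34% of all genes at the floor and for 5.05% of genes at 50 TPM or more in both libraries. In Srsf6, known as a regulator of tissue differentiation and wound healing, they held 25.2% and 27.7%. In Hnrnpd, also called AUF1 and known for binding AU-rich mRNA, they held 29.3% and 31.0%. Srsf2 was just under the threshold in replicate 1, with 17.3% and 20.8%. The median decay-type share over members was 0%, as it was over all genes. The families differed: the median was 8.28% over the 9 SR genes and 0% over the 18 hnRNP genes. Of these hnRNP genes, 7 had only coding transcripts listed. The SR median is the value of Srsf11, whose decay-type share was lower by expected counts, at 3.06% and 1.99%.

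The 9 decay-type transcripts of members that held 5% or more in both libraries were of 2 kinds. In 3 of them (Srsf2-204, Hnrnpd-208 and Hnrnpdl-201) the stop codon was that of the leading coding transcript, and splicing had removed sequence after it. The last exon junction lay 113, 137 and 126 nt after the stop. In the other 6 (Srsf3-201, Srsf6-201, Tra2b-206, Srsf1-204, Hnrnph3-204 and Ptbp3-213) the stop codon was a different one. The last junction lay between 80 and 1015 nt after it. Junctions far after a stop are the feature that nonsense-mediated decay reads.

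Poison exons could be followed in 4 genes with their early stop inside the exon. The sequences below show how soon each such exon ends the reading frame. Each is given 5′ to 3′ on the strand of the gene, from the first base of the exon to the stop codon, which is in capitals. They come from the GENCODE M21 transcripts on GRCm38 (the assembly also called mm10).
Srsf3: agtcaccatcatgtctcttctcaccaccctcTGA
Srsf6: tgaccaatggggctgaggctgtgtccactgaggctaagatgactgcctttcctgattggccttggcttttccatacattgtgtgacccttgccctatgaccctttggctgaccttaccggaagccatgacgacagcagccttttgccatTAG
Tra2b: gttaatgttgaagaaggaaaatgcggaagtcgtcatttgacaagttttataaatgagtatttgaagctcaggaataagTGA
Srsf11, first exon: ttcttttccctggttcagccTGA
Srsf11, second exon: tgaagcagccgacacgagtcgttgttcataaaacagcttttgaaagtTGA

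The Srsf3 exon is 456 nt long at chr17:29039454-29039909 on the plus strand, and its stop codon ends at base 34. Inclusion was taken as the TPM of transcripts with the exon over the TPM of those with it or skipping it. It was 20.99% in replicate 1 and 17.8% in replicate 2 (19.4% ± 2.29, SD, n = 2). The Srsf3 value sets Srsf3-201 against Srsf3-202 only, so it is not the exon's use over the whole gene. Srsf3-205, at 369 and 452 TPM, overlaps 392 nt of the exon and entered neither side. The Srsf6 exon, 268 nt at chr2:162932815-162933082 on the plus strand, reaches its stop at base 152 and was included at 25.6% and 28.4%. The Tra2b exon, 276 nt at chr16:22258986-22259261 on the minus strand, reaches its stop at base 81 and was included at 14.6% and 19.7%. The Tra2b value likewise sets Tra2b-206 against Tra2b-204 only. Over the whole gene, Tra2b-206 held 7.42% and 11.05% of the TPM. By expected counts in place of TPM, inclusion was lower: 16.4% and 13.7% for Srsf3, 13.6% and 15.3% for Srsf6, and 7.14% and 9.98% for Tra2b. The tables list Srsf3-201 and Tra2b-206 with other lengths than the reference (1919 against 2594 nt, and 1590 against 1687 nt), so their exon make-up is taken from the later release.

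Srsf11, a protein of nuclear speckles, has 2 alternative poison exons in the same intron on the minus strand of chromosome 3. The first, 109 nt at chr3:158024123-158024231, was included at 12.6% and 7.03%. The second, 117 nt at chr3:158023243-158023359, was included at 16.5% and 8.36%. Both were higher in replicate 1, and the leading Srsf11-202 that skips them has 2614 nt in the tables and 2654 nt in the reference. Srsf11-203, Srsf11-208 and Srsf11-213 entered neither side, so these values are not the use of the exons over the whole gene. Srsf4 has a 184 nt exon at chr4:131885309-131885492 that was used only in decay-type transcripts, at 7.60% and 6.12%, with no stop inside the exon itself. By expected counts these exons were lower by more than 1.5 times: 4.79% and 2.33% for the first Srsf11 exon, 5.36% and 2.49% for the second, and 3.05% and 2.41% for that of Srsf4. An Hnrnpd exon of 107 nt after the stop codon was included at 34.4% and 36.6%, or 22.7% and 25.4% by expected counts.

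Retained-intron transcripts held 20% or more in both libraries in 6 members: Srsf3, Srsf5, Srsf11, Hnrnpk, Hnrnpl and Hnrnph3. The background was 13.0% of genes at the floor and 11.0% of genes at 50 TPM or more. The median retained-intron share was 1.91% and 1.61% among members and 1.38% and 1.26% among all genes. Total RNA includes nuclear RNA that is still being spliced, and its part in these shares was not tested.

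Srsf3 had the largest share, 51.7% in replicate 1 and 54.7% in replicate 2. Most of it was Srsf3-205, which led the gene with 46.1% and 52.1%. In the reference its first exon starts inside the poison exon, shares 392 nt with it, and runs on through the rest of the intron. The tables give this transcript 910 nt and the reference 2110 nt, so which reads it drew is not settled. Srsf3-205 held 5845 of 26873 and 8257 of 31090 expected counts of the gene, and by counts the coding Srsf3-202 led in both libraries.

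Srsf3 and Srsf5 were the 2 members led by a noncoding transcript in both libraries, where 7.62% of genes at the floor and 8.88% at 50 TPM or more were led in that way. Srsf5 is an SR protein known for its role in mRNA export and for intron retention in its own transcripts. Srsf5-212 held 36.4% and 35.4% of its TPM and keeps the whole of intron 5, 1229 nt at chr12:80947866-80949094. It also led by expected counts, with 4832 and 5457, and its length of 2720 nt was the same in the reference. Its leading coding transcript, Srsf5-201, held 28.9% and 30.1%.

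In Srsf11, retained-intron transcripts held 46.5% in replicate 1 and 27.4% in replicate 2, beside 43.7% and 65.8% for coding forms. Srsf11-203, Srsf11-208 and Srsf11-213 all contain part of the second intron, 3774 nt long, the intron that also holds both poison exons. By TPM the libraries thus differed in which class was larger. By expected counts coding forms were larger in both, at 51.4% against 45.5% in replicate 1 and 73.9% against 24.1% in replicate 2. Srsf1 showed 18.6% and 7.07% in retained-intron forms, likewise higher in replicate 1. In Srsf2, Srsf2-203 keeps a whole intron of 1059 nt after the stop codon and held 6.76% and 6.80%.

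In Hnrnpk, retained-intron transcripts held 40.4% and 41.8%. The main one, Hnrnpk-217, held 25.7% and 32.0% and keeps the 78 nt intron 13 at chr13:58393775-58393852. In Hnrnpl it was Hnrnpl-210, which keeps the 118 nt intron 11 at chr7:28821274-28821391. It held 19.7% in replicate 1 and 34.5% in replicate 2, where it led the gene. Hnrnph3 held 22.6% and 20.2% in such forms, split between introns 8 and 4 of 185 and 430.0 nt. Hnrnpk-217, Hnrnpl-210, Hnrnph3-205 and Hnrnph3-206 are short models of 651 to 874 nt, and short models gain TPM relative to counts. By expected counts, Srsf3, Srsf5 and Srsf11 passed 20% in both libraries and the 3 hnRNPs did not.

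Other noncoding transcripts were large in 2 members. In Hnrnph1 they held 58.7% and 56.9%, and Hnrnph1-212, of 816 nt, led the gene in replicate 2 with 33.9% after 24.6% in replicate 1. In Srsf10, a splicing regulator that acts as a repressor when dephosphorylated, they held 48.5% and 53.4%. By expected counts both fell below coding forms: 45.7% and 39.4% in Hnrnph1, and 14.5% and 16.0% in Srsf10.

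The leading transcript differed between libraries in 6 members, Hnrnpab, Hnrnpf, Hnrnph1, Hnrnpl, Hnrnpr and Ptbp1, beside 10.7% of genes at the floor. In Hnrnpab and Ptbp1 the competing transcripts held close shares in both libraries. Hnrnpab was led by Hnrnpab-203 with 49.2% in replicate 1 and by Hnrnpab-201 with 49.3% in replicate 2. Ptbp1 was led by Ptbp1-216 with 36.8% and by Ptbp1-202 with 36.3%. Hnrnpf changed from Hnrnpf-201 with 45.9% to Hnrnpf-210 with 45.3%. Hnrnpr, a relative of Syncrip, differed more widely. Its decay-type transcript Hnrnpr-206 held 18.5% in replicate 1 and 0.06% in replicate 2, on 372 and 0.84 expected counts.

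Alternative exons inside the coding sequence were followed where inclusion lay between 5% and 95% in both libraries. Those described number 14 in 10 genes, of which 9 have a length of whole codons. Among these, the 54 nt Hnrnpm exon and the 105 nt Srsf12 exon are skipped only together with a partner exon. The length of each partner is not of whole codons. Inclusion in single libraries ranged from 13.3% to 89.9%, and the median SD between the libraries was 2.41 percentage points. An alternative exon pair of Hnrnpa2b1 is not described, because its leading transcript has 4086 nt in the tables and 1728 nt in the reference.

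**Figure D4:**
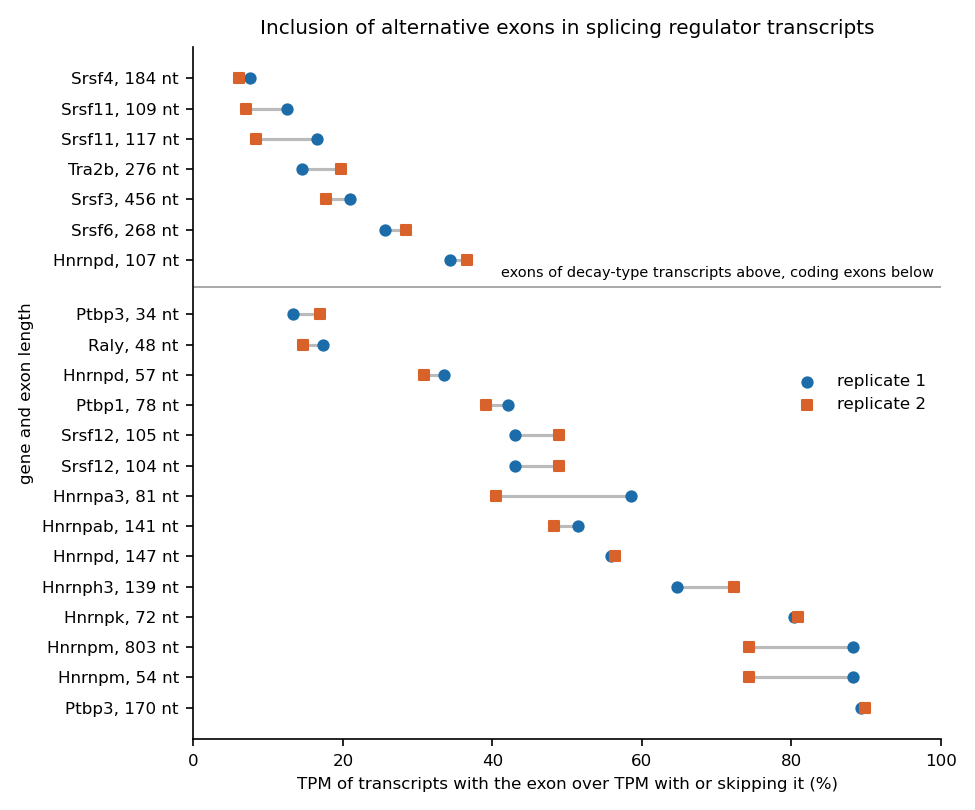
Inclusion (percent) of alternative exons in replicate 1 (circles) and replicate 2 (squares), as TPM of transcripts with the exon over TPM of transcripts with or skipping it. The upper block holds 7 exons used in decay-type transcripts, between 6.12% and 36.6%, and the lower block holds 14 coding exons; Hnrnpa3 shows the widest gap between libraries.

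Exons of the glycine-rich tails of 3 hnRNPs were among them. These tails form the low-complexity regions known to drive the proteins into condensates. The sequences are shown because they share a composition. In capitals are the in-frame GGN codons, which encode glycine, and the TAC and TAT codons, which encode tyrosine. Each is given 5′ to 3′ on the strand of the gene, from the GENCODE M21 transcripts.
Hnrnpa3: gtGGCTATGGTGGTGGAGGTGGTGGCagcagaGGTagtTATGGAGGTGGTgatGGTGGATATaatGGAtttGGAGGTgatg
Hnrnpab: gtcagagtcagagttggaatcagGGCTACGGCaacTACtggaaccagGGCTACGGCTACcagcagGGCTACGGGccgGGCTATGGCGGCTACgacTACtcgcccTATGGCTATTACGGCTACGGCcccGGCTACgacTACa
Hnrnpd: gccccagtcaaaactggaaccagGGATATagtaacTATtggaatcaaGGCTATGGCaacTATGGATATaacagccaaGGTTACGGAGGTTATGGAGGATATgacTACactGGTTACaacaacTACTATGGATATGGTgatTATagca

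Marked codons made up 73.1% of the 26 whole codons of the Hnrnpa3 exon, 58.7% of the Hnrnpab exon and 54.2% of the Hnrnpd exon, beside 34.5%, 21.4% and 23.5% of the full coding sequences. The Hnrnpa3 exon held 16 GGN codons and 3 TAC or TAT codons. Hnrnpab and Hnrnpd were more even, with 13 and 14 and with 12 and 14. These counts are descriptions of sequence, and the frames are those of the reference.

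The Hnrnpab exon, 141 nt at chr11:51601750-51601890 on the minus strand, was included at 51.4% and 48.2%. The Hnrnpd exon, 147 nt at chr5:99963731-99963877 on the minus strand, was included at 55.9% and 56.4%. The Hnrnpa3 exon, 81 nt at chr2:75662845-75662925 on the plus strand, was included at 58.6% and 40.5%. The Hnrnpab and Hnrnpd exons lay within 4 percentage points between libraries, and the Hnrnpa3 exon did not. By expected counts inclusion was 38.4% and 35.4% for Hnrnpab, 65.3% and 65.1% for Hnrnpd, and 72.2% and 60.4% for Hnrnpa3.

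Ptbp1 has an exon of 78 nt at chr10:79860117-79860194 on the plus strand, between RNA recognition motifs, whose skipping is known to weaken its repressor activity. Its sequence, 5′ to 3′ on the plus strand and without a marked part, is given as the best studied alternative exon of the family.
Ptbp1: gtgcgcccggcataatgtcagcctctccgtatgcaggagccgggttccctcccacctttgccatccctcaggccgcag

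The Ptbp1 exon was included at 42.1% in replicate 1 and 39.1% in replicate 2 (40.6% ± 2.08, SD, n = 2), and at 43.9% and 40.9% by expected counts. Skipping thus exceeded inclusion in both libraries by TPM and by counts. Hnrnpk uses a 72 nt exon at chr13:58396188-58396259 at 80.4% and 80.9%. Hnrnpd uses a second exon, 57 nt at chr5:99976534-99976590, at 33.5% and 30.8%. Raly uses a 48 nt exon at chr2:154859911-154859958 at 17.4% and 14.7%, close between libraries although its level was 4.30-fold higher in replicate 2. Ptbp3 includes a 170.0 nt exon at 89.3% and 89.9%, or at 97.7% and 97.9% by expected counts. All of the TPM that skips this exon was that of the decay-type Ptbp3-213, at 6.44 and 3.99 TPM. Ptbp3 also includes a 34 nt exon at 13.3% and 17.0%, which by expected counts was at 2.52% and 3.39%. Transcripts with the 34 nt exon, Ptbp3-213 among them, stood at 8.26 and 7.14 TPM together. Hnrnph3 includes a 139 nt exon at 64.7% and 72.3%, or at 80.4% and 82.2% by expected counts. It is skipped by the coding Hnrnph3-203 and by the decay-type Hnrnph3-204. A pair of Hnrnpm exons, of 803 and 54 nt, was included at 88.3% in replicate 1 and 74.4% in replicate 2. By expected counts the pair was at 97.0% and 92.6%. A pair of Srsf12 exons, of 105 and 104 nt, was at 43.0% and 48.9% by TPM and at 16.2% and 19.7% by expected counts, in a gene with few counts.

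Some members have near-identical copies elsewhere in the genome, which can share reads with them. A search matched 82 annotated pseudogenes to 18 of the 37 members, at 90% identity or more. Hnrnpa3 had 34 of them, and those in the tables held 18.6% and 17.1% as many counts as the gene. The copy of Hnrnpc held 6.15% and 5.31%, that of Hnrnpk 4.05% and 4.003%, and those of Srsf3 1.86% and 2.34%. In TPM the copies stood at 34.9% and 31.5% of the level of Hnrnpa3, at 20.9% and 18.1% of that of Hnrnpc, and at 13.1% and 15.3% of that of Srsf3. Levels of these genes are therefore uncertain, and how many reads were given to the wrong copy was not tested. In addition, 6 members overlap a gene on the other strand at 10 TPM or more in both libraries, such as Hnrnpu with Cox20 and Srsf2 with Mettl23. No source used here says if strand entered the counting, so reads of those overlaps cannot be told apart. Hnrnpm shares 1169 nt of exon with March2 on the same strand, where strand cannot separate reads. March2 stood at 36.3 and 23.3 TPM.

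Other genes of the pathway were taken from lists. The kinases that phosphorylate SR proteins and so steer their entry into the nucleus and their activity were detected for 9 of 9 genes, with a median of 33.8 TPM. Clk1, which releases SR proteins from speckles, was highest at 170 and 153 TPM, and Srpk1, which works in the cytoplasm, followed at 100.4 and 80.1 TPM. Dyrk1a, at 10.4 and 13.6 TPM, and Srpk3, a kinase of muscle, at 3.75 and 2.15 TPM, were lowest. None of the 9 was apart between libraries.

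Proteins that recognise the splice sites were detected for 10 of 10 genes, with a median of 107 TPM. Snrpc and Snrpa, proteins of the U1 particle that binds the 5′ splice site, were highest at 234 and 271 TPM and at 257 and 248 TPM. Snrnp200 and Sf3a1 were lowest, at 67.6 and 47.96 TPM and at 56.9 and 41.4 TPM. Of this list 2 genes were apart, both higher in replicate 2. They were Snrnp70, the U1 protein contacted by SR proteins, at 42.3 and 108 TPM, and U2af1, which reads the end of the intron, at 148 and 297 TPM. Their direction was that of Raly and Tra2a, and a link between these genes was not tested. Of all protein-coding genes at 5 TPM, 4.68% were apart in either direction and 0.467% in this one.

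Nonsense-mediated decay factors were detected for 10 of 10 genes at a lower median of 19.7 TPM. Upf3a and Smg5 were highest, at 45.5 and 37.2 TPM and at 37.8 and 26.9 TPM. Smg6, the endonuclease of the pathway, at 15.6 and 9.57 TPM, and Upf2, at 9.55 and 9.39 TPM, were lowest. Smg1, the kinase of Upf1, was apart in the other direction, at 22.9 and 10.7 TPM.

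Of 47 other splicing regulators, 38 were detected, with a median of 32.1 TPM over all 47, and none was apart. Rbm39 and Pcbp1 were highest at 534 and 561 TPM and at 387 and 356 TPM. Elavl3 and Srrm4, regulators of neurons, were lowest at 0.07 TPM in both libraries. In all 4 lists the median was below that of the SR and hnRNP genes, the nearest being the splice-site list.

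**Figure D5:**
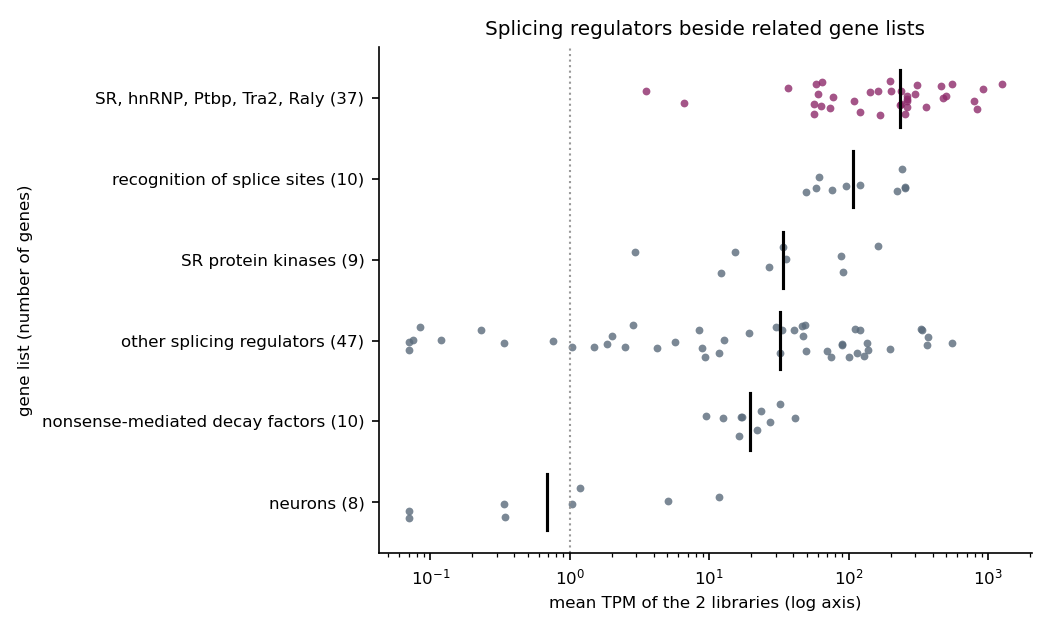
Mean TPM of the 2 libraries (log axis) for each gene of the SR, hnRNP, Ptbp, Tra2 and Raly group and of 5 other lists; black bars are list medians and the dotted line marks 1 TPM. The median of the group is 231.6 TPM, against 107 TPM for splice-site recognition, 33.8 TPM for SR protein kinases and 0.69 TPM for neuronal markers.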

How the data were processed

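Total RNA of 2 mouse kidney samples was quantified by the submitters on mm10 with annotation M4, per the deposited README. The quantification tool was not given in the sources used. The deposited expected counts are estimated reads per gene or transcript, shared out where reads match several features. The deposited TPM values, also given as posterior means, are abundances relative to all features of a library. The deposited FPKM values are scaled to length and depth. The deposited isoform percent gives each transcript's part of its gene. The deposited bounds of TPM, a signal within 1 library, were not used for any statement.

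Symbols, classes and exons came from GENCODE M21, which matched 42462 of 43346 gene identifiers. Members, lists and comparisons were chosen with earlier results of these data known. Genes were named by rule: the 8 highest and 5 lowest SR and hnRNP genes, all Ptbp, Tra2 and Raly genes, all apart, with a noncoding or differing leader, or with 20% or more in retained-intron or decay-type transcripts, and the 2 highest and 2 lowest of each other list. Decay-type, intron and exon values used Python 3.11.15 and pandas 2.3.3. Pseudogenes were matched with blastn 2.17.0 (at least 90% identity over 100 nt and 50% of the pseudogene). Scaling factors came from edgeR 4.0.16 (TMM) and DESeq2 1.42.0 on rounded expected counts or TPM in R 4.3.3. The size rule and class shares were tested on simulated data. Samples are labelled biological replicates of 1 group with 1 donor identifier, so SDs describe the spread between these samples. Reads carry no molecular identifiers used here. One further coding exon, outside the counts given, is not reported here.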

Additional observations from a re-analysis of the deposited data

How the results depend on the processing

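The alternatives were other estimates (posterior mean TPM, FPKM, expected counts), pseudocounts, floors and scalings, and each library alone. The number detected stayed at 36 or 37. The median level moved from 231.6 to 226.5 TPM with posterior means and to 272 TPM when mitochondrial, haemoglobin and spike-in features were left out, and was 223 to 226 TPM in single libraries. The share held by members was 1.54% by expected counts, against 1.15%, and 1.09% to 1.21% in single libraries. The number of members apart was 2 or 3. The median log2 ratio changed sign to 0.0779 with FPKM, 0.15 with TMM factors and 0.13 with DESeq2 factors. The median coding share moved from 84.4% to 83.1% with posterior means, 85.2% at a floor of 1 TPM and 94.5% by expected counts, and was 83.0% to 83.5% in single libraries. By expected counts the median retained-intron share was 0.804% and the median decay-type share 6.75e-05%, and with posterior means the latter was 0.670%. Short transcripts weigh less in counts than in TPM by construction. By counts, 1 member was led by a noncoding transcript in place of 2, 3 differed in their leader in place of 6, 3 held 20% or more in retained-intron forms in place of 6, and 1 held it in decay-type forms in place of 2. In single libraries 2 to 4 members were led by a noncoding transcript; replicate 2 gave 4, with Hnrnph1 and Hnrnpl added. The Ptbp1 to Ptbp2 ratio stayed between 6.09 and 6.95. Of 21 exons, 19 moved by more than their SD with counts and 1 with posterior means. The background at 50 TPM and the alternatives for exons and for the counts of members at 20% were chosen after seeing the data. Leaving out a library was not possible for results that compare the libraries. No paired analysis was possible because the samples form 1 group. Depth limits Srsf12, with 121 and 155 expected counts, and exons of short transcripts.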
